A study of Canis lupus familiaris with 8 samples.

Results

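The genes of the Usher syndrome protein network were followed in dog retina that had been either frozen fresh or fixed with paraformaldehyde (PFA), a crosslinking fixative used for histology. The 9 genes were taken by name, as parts of the complexes at the photoreceptor calyx and periciliary membrane, and all 9 (MYO7A, USH1C, CDH23, PCDH15, USH1G, ADGRV1, WHRN, CIB2 and CLRN1) were among the 12824 genes of the deposited table. All libraries came from retina of male wild-type Beagles of 31 weeks, with 4 libraries for each preparation. For the fresh-frozen group, right eyecups were cut into 4 quadrants and embedded for freezing with neither fixative nor sucrose. For the PFA-fixed group, left eyes were first held in 4% PFA (3 h), then in 2% PFA (24 h, 4 °C). They were taken through 15% and 30% sucrose for 24 h each, and were then embedded and frozen. Samples of the PFA-fixed group are also recorded as 4 quadrants. RNA of the groups was extracted with different column kits, the kit for fixed tissue including 18 h of proteinase K at 56 °C. Effects of the fixative, of the sucrose steps, of left against right eyes and of the kit cannot be told apart. Markers of sclera, melanocytes and pigment epithelium also differed between the groups, as given below. Replicates are described as biological, with no statement of which libraries share a dog, so each p-value reflects only the variation among these 8 libraries.

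Usher syndrome joins inherited hearing loss with retinitis pigmentosa, a loss of photoreceptors. Its proteins bind one another: the cadherins CDH23 and PCDH15 and the giant adhesion receptor ADGRV1 form links outside the cell, the PDZ scaffolds harmonin (USH1C) and whirlin (WHRN) and the ankyrin protein SANS (USH1G) hold their tails, and the motor myosin VIIa (MYO7A) ties the complex to actin. In inner ear hair cells these links join the stereocilia. In photoreceptors they are found at the calyceal processes, actin-filled fingers around the base of the outer segment, and at the periciliary membrane beside the connecting cilium, through which opsin travels.

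Of the 9 genes, 5 rose in PFA-fixed retina, 1 fell and 3 did not pass the test. CLRN1 rose 3.67-fold, PCDH15 2.72-fold, MYO7A 2.67-fold, ADGRV1 2.54-fold and WHRN 1.48-fold, whereas CIB2 was 1.47-fold lower. USH1C, CDH23 and USH1G were not called. The test was limma on log2 CPM (log2 of counts scaled to library size), fitted to all 12824 genes with Benjamini-Hochberg adjustment at 0.05, and a change is PFA-fixed minus fresh-frozen on the log2 scale. The median change of the 9 genes was 0.56, with members from -0.56 to 1.88, and that of all genes was -0.02.

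These counts stand against a table in which many genes moved. Of all genes, 68.7% were called, 33.9% as higher and 34.7% as lower in fixed retina, and 10.6% were called and at least 2-fold higher. Of the 9 members, 6 were called, and 4 (CLRN1, PCDH15, MYO7A and ADGRV1) rose at least 2-fold. Fixed and fresh-frozen values were fully separated for 6 of the 9 members and for 62.9% of all genes. The share of members called was thus near that of the whole table. The change of CLRN1 exceeded that of 97.8% of all genes, the changes of PCDH15, MYO7A and ADGRV1 that of 95.1%, 94.9% and 94.0%, and that of WHRN 78.2%. CIB2 had a higher change than 24.3% of all genes.

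Effective depth, estimated from the spacing of low values, was 21650000 to 22790000 reads in fresh-frozen and 11030000 to 15400000 in fixed libraries. The tissue label was checked on marker genes. A list of 17 rod genes was present in both groups, at a summed 30075 to 35124 CPM in fresh-frozen and 33005 to 37797 CPM in fixed libraries (9 rose and 4 fell, median change 0.27). All 7 sclera and fibroblast genes fell, from a summed 6817 to 9875 CPM to 177 to 201 CPM. Of 8 bipolar cell genes 5 rose and none fell (median change 0.44, from a summed 1330 to 1690 CPM to 2316 to 2975 CPM). Of 10 cone genes 3 rose and 1 fell (median change 0.15, from a summed 894 to 1486 CPM to 1619 to 2311 CPM). The cone channel gene CNGA3 had the largest change of that list, 4.52, from a mean of 35.7 to 800 CPM, and weighs heavily in its fixed sum. Of 8 melanocyte genes 7 fell, from a summed 1451 to 2219 CPM to 98.4 to 106 CPM. Of 6 ganglion cell genes 4 fell and 1 rose (1880 to 3693 CPM, then 2041 to 3068 CPM), and of 7 amacrine cell genes 3 rose and 3 fell (532 to 647 CPM, then 522 to 631 CPM). The part of these cell types in the changes of the members was not tested. In bulk tissue, fewer cells of a type and less RNA per cell cannot be told apart. The deposited scaling gave 4353 higher and 4451 lower calls over all genes. Centring each library on the mean of its rod list gave 2696 and 5921, and centring on the median of that list gave 1012 and 7577. Those centrings moved the median change of all genes to -0.27 and -0.66. The median of the list is the level of whichever rod gene ranks in the middle of a library. That gene was SLC24A1 (10.36 log2 CPM) in fresh-frozen replicate 1 and RCVRN (11.02 log2 CPM) in PFA-fixed replicate 1. RCVRN itself changed by -0.12. The list median can thus compare different genes, and its shift exceeded the median change of the rod genes, 0.27.

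**Figure D1:**
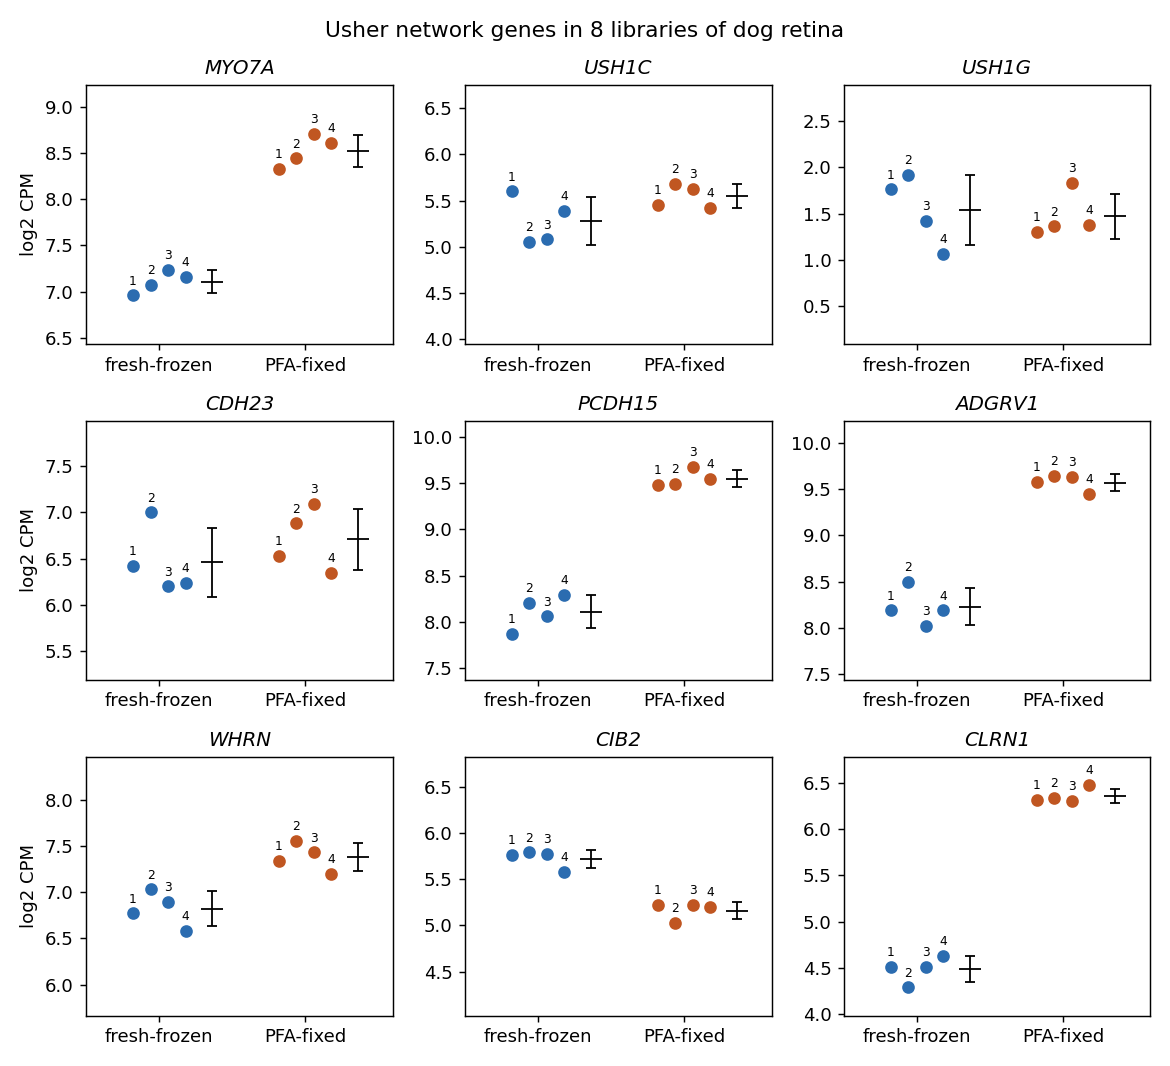
Level of each Usher network gene (log2 CPM, vertical axis, of equal span in every panel) in the 4 fresh-frozen (blue) and 4 PFA-fixed (orange) libraries, numbered by replicate, with the mean and SD of each group in black. The groups are apart for MYO7A, PCDH15, ADGRV1, WHRN and CLRN1 (fixed higher) and for CIB2 (fixed lower), and overlap for USH1C, USH1G and CDH23.

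The tip link cadherins moved unequally. PCDH15, protocadherin 15, stood at 7.87, 8.21, 8.06 and 8.29 log2 CPM in fresh-frozen replicates 1 to 4 and at 9.48, 9.49, 9.68 and 9.55 log2 CPM in PFA-fixed replicates 1 to 4. Every fixed library exceeded every fresh-frozen one, and the fixed libraries lay closer together. The mean went from 277 ± 33.9 to 751 ± 48.3 CPM (SD, n = 4 each), a change of 1.44 ± 0.09 (SE; limma adjusted p = 6.13e-08). CDH23, cadherin 23, which binds PCDH15 head to head in hair cells, stood at 6.42, 7.00, 6.20 and 6.24 log2 CPM in fresh-frozen and at 6.53, 6.88, 7.09 and 6.35 log2 CPM in fixed libraries. The groups overlapped: fresh-frozen replicate 2 exceeded 3 of the 4 fixed libraries. The change of CDH23 was 0.25 ± 0.19 (SE), with a 95% interval from -0.16 to 0.66 (limma adjusted p = 0.257). Without fresh-frozen replicate 2 it was 0.43 and passed (limma adjusted p = 0.0286).

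Within groups, the members differed in which libraries were highest and lowest. Fresh-frozen replicate 2, highest for CDH23, also had the highest rod list mean of its group, 10.50 against 10.25 to 10.28 log2 CPM. Among fixed libraries, the rod list mean was 10.66 in replicate 3, 10.64 in replicate 2, 10.57 in replicate 1 and 10.46 in replicate 4, the same order as for CDH23. Among fresh-frozen libraries the orders differed at the low end, where CDH23 was lowest in replicate 3 and the rod list mean in replicate 4. WHRN and ADGRV1 were likewise highest in fresh-frozen replicate 2 and lowest in PFA-fixed replicate 4 of their groups. CLRN1 went the other way, lowest in fresh-frozen replicate 2 and highest in PFA-fixed replicate 4. PCDH15 was highest in fresh-frozen replicate 4, MYO7A in fresh-frozen replicate 3, and USH1C was lowest in fresh-frozen replicate 2. CIB2 and USH1G were highest in fresh-frozen replicate 2, but CIB2 was lowest in PFA-fixed replicate 2 and USH1G in PFA-fixed replicate 1. These orders rest on 4 libraries a group, and the part of rod content in them was not tested.

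CDH23 overlaps the immune checkpoint gene VSIR in the RefSeq gene table of UU_Cfam_GSD_1.0. VSIR fell by 2.46 (limma adjusted p = 3.42e-07), from a mean of 3.76 to 1.31 log2 CPM. Whether counting used strand information is not stated in any source used here.

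The motor and its cargo adaptors also differed among themselves. MYO7A stood at 6.96, 7.07, 7.24 and 7.16 log2 CPM in fresh-frozen replicates 1 to 4 and at 8.33, 8.44, 8.71 and 8.61 log2 CPM in PFA-fixed replicates 1 to 4. All fixed libraries were above all fresh-frozen ones, by at least the distance from 7.24 to 8.33. The mean rose from 138 ± 11.3 to 370 ± 43.1 CPM (SD, n = 4 each), a change of 1.42 ± 0.09 (SE; limma adjusted p = 7.60e-08). USH1C, whose product harmonin is the PDZ scaffold that binds the cadherin tails, stood at 5.60, 5.05, 5.08 and 5.39 log2 CPM in fresh-frozen and at 5.45, 5.68, 5.63 and 5.42 log2 CPM in fixed libraries. Fresh-frozen replicate 1 lay above 2 fixed libraries, so the groups overlapped. The change of USH1C was 0.27 ± 0.12 (SE), with a 95% interval from -0.0043 to 0.54 (limma adjusted p = 0.074). USH1C passed without fresh-frozen replicate 1 (0.37, limma adjusted p = 0.0107) and with each library centred on its median (0.35, limma adjusted p = 0.0261).

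USH1G, which encodes the adaptor SANS that joins harmonin to myosin VIIa, was the least counted member. It stood at 1.76, 1.92, 1.42 and 1.06 log2 CPM in fresh-frozen and at 1.30, 1.36, 1.83 and 1.38 log2 CPM in fixed libraries. The fixed values lay inside the wider fresh-frozen range, and PFA-fixed replicate 3 lay apart from the other fixed libraries. At the estimated depth these levels stand for about 48 to 82 reads in fresh-frozen and 28 to 55 in fixed libraries. The change of USH1G was -0.07 ± 0.24 (SE), with a 95% interval from -0.61 to 0.46 (limma adjusted p = 0.8).

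MYO7A is also strongly expressed in the retinal pigment epithelium, where it holds melanosomes through the adaptor MYRIP and the small GTPase RAB27A. All 12 listed genes of that epithelium fell (11 of them at least 2-fold, median change -4.37, with PMEL and TYRP1 shared with melanocytes), and their sum went from 2821 to 4044 CPM in fresh-frozen to 245 to 304 CPM in fixed libraries. None of the 12 reached the lowest value of the table in a fixed library, and their lowest fixed mean was -1.05 log2 CPM, for the lactate transporter gene SLC16A8. RAB27A fell by 3.40 (limma adjusted p = 2.48e-08) and MYRIP, named here after its values were seen, by 0.50 (limma adjusted p = 0.00172). MYO7A therefore rose in the libraries in which markers of the pigment epithelium fell.

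Members of the ADGRV1 and whirlin complex, which carries the long links at the periciliary membrane, rose together. ADGRV1, the adhesion receptor, stood at 8.19, 8.50, 8.02 and 8.19 log2 CPM in fresh-frozen replicates 1 to 4 and at 9.58, 9.64, 9.63 and 9.45 log2 CPM in PFA-fixed replicates 1 to 4. Fixed libraries lay close together and all above the highest fresh-frozen library. The mean went from 302 ± 42.7 to 763 ± 44.7 CPM (SD, n = 4 each), a change of 1.35 ± 0.09 (SE; limma adjusted p = 1.51e-07). WHRN, whose PDZ domains bind the tail of ADGRV1, stood at 6.77, 7.03, 6.89 and 6.58 log2 CPM in fresh-frozen and at 7.34, 7.55, 7.43 and 7.20 log2 CPM in fixed libraries. The groups of WHRN did not overlap, though fresh-frozen replicate 2 and PFA-fixed replicate 4 came close. The change of WHRN was 0.56 ± 0.10 (SE; limma adjusted p = 3.83e-04). With each library centred on the median of its rod list it turned to -0.08 and was not called (limma adjusted p = 0.711). With the mean of that list it was 0.31 and still called (limma adjusted p = 0.00609).

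The remaining members moved in opposite directions. CLRN1 encodes clarin 1, a small 4-pass membrane protein behind the third clinical type of the syndrome. It stood at 4.51, 4.29, 4.51 and 4.63 log2 CPM in fresh-frozen replicates 1 to 4 and at 6.32, 6.34, 6.31 and 6.48 log2 CPM in PFA-fixed replicates 1 to 4. The gap between the groups was several times the range within either. The mean went from 22.5 ± 2.18 to 82.5 ± 4.53 CPM (SD, n = 4 each), a change of 1.88 ± 0.09 (SE; limma adjusted p = 7.42e-09), the largest among the 9 members. In rodent and fish retina, clarin 1 transcripts have been placed in Müller glia as well as in neurons. Of 10 Müller glia genes, none rose and 6 fell (median change -0.75; RLBP1 is on both this list and that of the pigment epithelium), and their sum went from 5488 to 7692 CPM in fresh-frozen to 3122 to 4193 CPM in fixed libraries. None of them stood at the lowest value of the table in a fixed library, and the part of Müller glia in the level of CLRN1 was not tested.

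CIB2, a calcium- and integrin-binding protein that partners with the mechanotransduction channel in hair cells, was the member that fell. It stood at 5.76, 5.79, 5.77 and 5.58 log2 CPM in fresh-frozen and at 5.22, 5.03, 5.22 and 5.20 log2 CPM in fixed libraries. Even the lowest fresh-frozen library, replicate 4, exceeded all fixed ones. The mean went from 52.9 ± 3.42 to 35.9 ± 2.22 CPM (SD, n = 4 each), a change of -0.56 ± 0.08 (SE; limma adjusted p = 7.26e-05). The change of IDH3A, a subunit of the mitochondrial isocitrate dehydrogenase and the neighbour of CIB2 in the RefSeq gene table, was also -0.56 (limma adjusted p = 3.85e-05).

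**Figure D2:**
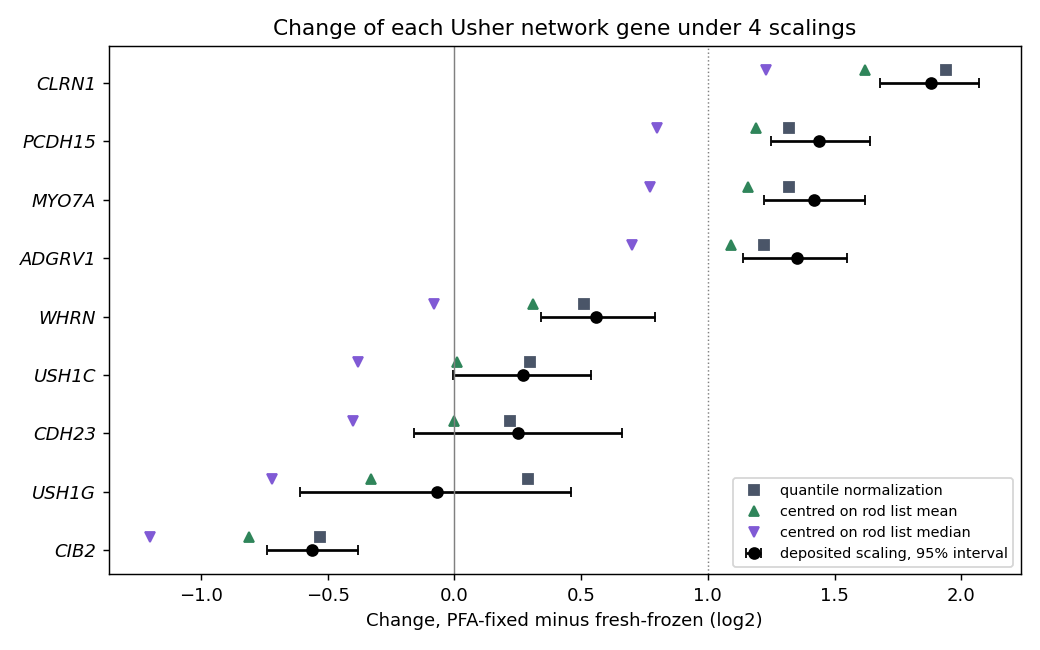
Change of each member (horizontal axis, PFA-fixed minus fresh-frozen, log2) with its 95% limma interval in black, and the change after 3 other scalings of the libraries (squares and triangles). Solid and dotted lines mark no change and a 2-fold rise. CLRN1, PCDH15, MYO7A and ADGRV1 lie above 0 and CIB2 below 0 under all 4 scalings, WHRN turns to -0.08 with the rod list median, and USH1C, CDH23 and USH1G lie on either side of 0 depending on the scaling.

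Centring moves every change by the same amount and so leaves their order as it is. With the rod list median, where the median change of all genes was -0.66, CLRN1 changed by 1.23, PCDH15 by 0.80, MYO7A by 0.77 and ADGRV1 by 0.70, and all 4 were still called as higher. CLRN1 was then the only member at least 2-fold higher. CIB2 changed by -1.20 under that scaling. With the rod list mean, CLRN1 changed by 1.62, PCDH15 by 1.19, MYO7A by 1.16 and ADGRV1 by 1.09. All 4 were then called and at least 2-fold higher, and CIB2 changed by -0.81. After quantile normalization the change of USH1G was 0.29, and it was not called.

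Ratios between members of one library do not depend on a constant that scales a whole library, so they show the unequal changes directly. A ratio also reflects transcript length, so only its difference between the groups is read here. PCDH15 minus CDH23 was 1.45, 1.21, 1.86 and 2.05 on the log2 scale in fresh-frozen replicates 1 to 4 and 2.95, 2.61, 2.59 and 3.19 in PFA-fixed replicates 1 to 4. The balance of the tip link partners thus shifted towards PCDH15 by 1.19, with no overlap. MYO7A minus USH1C went from 1.83 ± 0.35 to 2.98 ± 0.19 (SD, n = 4 each), a shift of 1.15. MYO7A minus USH1G went from 5.56 ± 0.47 to 7.06 ± 0.14. In both ratios of the motor to its adaptors, every fixed library was above every fresh-frozen one.

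ADGRV1 minus WHRN, the receptor against its scaffold, went from 1.41 ± 0.20 to 2.19 ± 0.08 on the log2 scale (SD, n = 4 each). The ranges, 1.13 to 1.61 and 2.08 to 2.25, did not meet. CLRN1 minus CIB2 went from -1.24 ± 0.23 to 1.20 ± 0.12, a shift of 2.44, so that counts of CIB2 outnumbered those of CLRN1 in every fresh-frozen library and the reverse held in every fixed one. By contrast, the 3 members that rose 2.54-fold to 2.72-fold kept their proportions. MYO7A minus PCDH15 ran from -1.14 to -0.83 in fresh-frozen and from -1.15 to -0.93 in fixed libraries. PCDH15 minus ADGRV1 was -0.12 ± 0.21 and -0.02 ± 0.12 (SD, n = 4 each), also with overlap. These pairs were chosen after the values were seen, and the shifts carry no test.

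**Figure D3:**
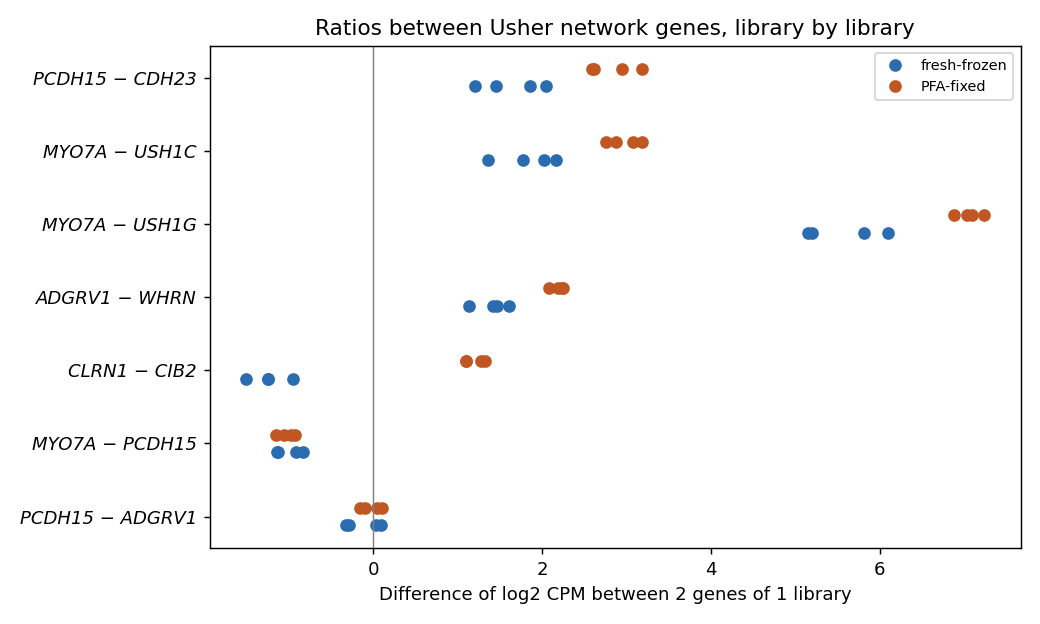
Difference of log2 CPM between 2 members of the same library (horizontal axis) for 7 pairs, with 1 point for each fresh-frozen (blue) and PFA-fixed (orange) library. The upper 5 pairs separate the groups, from a shift of 0.78 for ADGRV1 minus WHRN to 2.44 for CLRN1 minus CIB2, while the lower 2 pairs overlap.

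Genes around the network were taken from 6 lists with 52 names, of which 40 were measured. Of these 40, 15 rose, 15 fell and 10 were not called, with a median change of 0.00, shares (37.5% each way) close to those of the whole table. Among 12 measured direct partners and scaffolds, 6 rose and 4 fell, with a median of 0.24. PDZD7, a PDZ scaffold of the ADGRV1 complex and relative of whirlin, rose by 2.39 ± 0.26 (SE; limma adjusted p = 6.59e-06), from a mean of 1.42 to 3.81 log2 CPM. ESPN, the actin bundler espin that whirlin binds, rose by 1.50 ± 0.09 (SE; limma adjusted p = 7.03e-08). The bicarbonate transporter gene SLC4A7, which had the highest mean log2 CPM of the partners over all 8 libraries, changed by 0.13 (limma adjusted p = 0.217), and passed without fresh-frozen replicate 2 (0.22, limma adjusted p = 0.0187). Falls were led by RAB27A and by SPTBN5, the giant beta-V spectrin that binds several Usher proteins, at -1.61 (limma adjusted p = 0.00903). SPTBN5 stood at 3.92 log2 CPM in fresh-frozen replicate 2 and at 1.35 to 2.68 log2 CPM in the others of that group.

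Other disease genes and inner ear genes gave smaller groups. Of 5 genes of atypical or Usher-like disease, 2 rose and 2 fell. The centrosomal genes CEP250 and CEP78, both linked to cone-rod dystrophy with hearing loss, each rose by 0.99 (limma adjusted p of 7.83e-08 and 1.55e-05), while the histidyl-tRNA synthetase gene HARS1 fell by 0.43 and the lipase gene ABHD12 by 0.36 (limma adjusted p of 3.51e-04 and 0.00123 for the falls). Of 10 hair cell genes, 5 were measured, of which 3 rose and none fell. LHFPL5, which holds PCDH15 in the hair cell transduction complex, rose by 1.01 (limma adjusted p = 4.26e-06), from a mean of 4.42 to 5.43 log2 CPM. STRC, which encodes stereocilin, rose by 1.94 ± 0.45 (SE; limma adjusted p = 0.00246) from a mean of -1.09 log2 CPM. At the estimated depth its values stand for about 5.8 to 19 reads in fresh-frozen and 17 to 29 in fixed libraries. An added count, if one was used, would understate changes near the lowest value of the table, -3.12.

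Paralogs and actin genes completed the lists. Of the intestinal brush border complex, which mirrors the Usher complex with other family members, 3 of 5 genes were measured and none was called. ANKS4B, the relative of SANS, had the highest mean log2 CPM of the 3, with a change of -0.38 (limma adjusted p = 0.0588), which passed when any of PFA-fixed replicate 3, fresh-frozen replicate 3 or fresh-frozen replicate 4 was left out (-0.46 to -0.43). Without fresh-frozen replicate 3, CALML4 of this list also passed (-1.04, limma adjusted p = 0.00379), which gave 2 lower calls. The photoreceptor cadherin gene CDHR1 changed by 0.03 (limma adjusted p = 0.732), and CIB1, the ubiquitous relative of CIB2, fell by 0.91 (limma adjusted p = 1.12e-04). Of 13 genes of actin-filled microvilli and calyceal processes, 4 rose and 8 fell, with a median of -0.64. PROM1, the disc and microvillus membrane protein prominin 1 which had the highest mean log2 CPM of this list over all 8 libraries (ACTB was higher in the fresh-frozen ones), rose by 0.53 (limma adjusted p = 7.84e-05). The motor gene MYO3A and the bundler gene PLS1 rose by 1.12 and 0.88 (limma adjusted p of 0.00515 and 1.77e-06). Moesin (MSN), a linker of membrane to actin that is abundant in blood vessels and immune cells, fell by 3.21, and cytoplasmic actin (ACTB) fell by 1.79 (limma adjusted p of 8.47e-10 and 9.70e-09). Beside them, 5 of 6 endothelial and 6 of 8 microglia genes fell, from a summed 677 to 1004 CPM to 335 to 411 CPM, and from a summed 114 to 151 CPM to 16.0 to 23.1 CPM. Their part in the falls of MSN and ACTB was not tested. With the rod list median, the calls of CEP250, CEP78, LHFPL5, PROM1, PLS1 and MYO3A ended, and SLC4A7 (-0.51), CDHR1 (-0.61), CASK (-0.68), ARSG (-0.95), ANKS4B (-1.02), MYO7B (-1.32) and CALML4 (-1.35) were called lower.

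**Figure D4:**
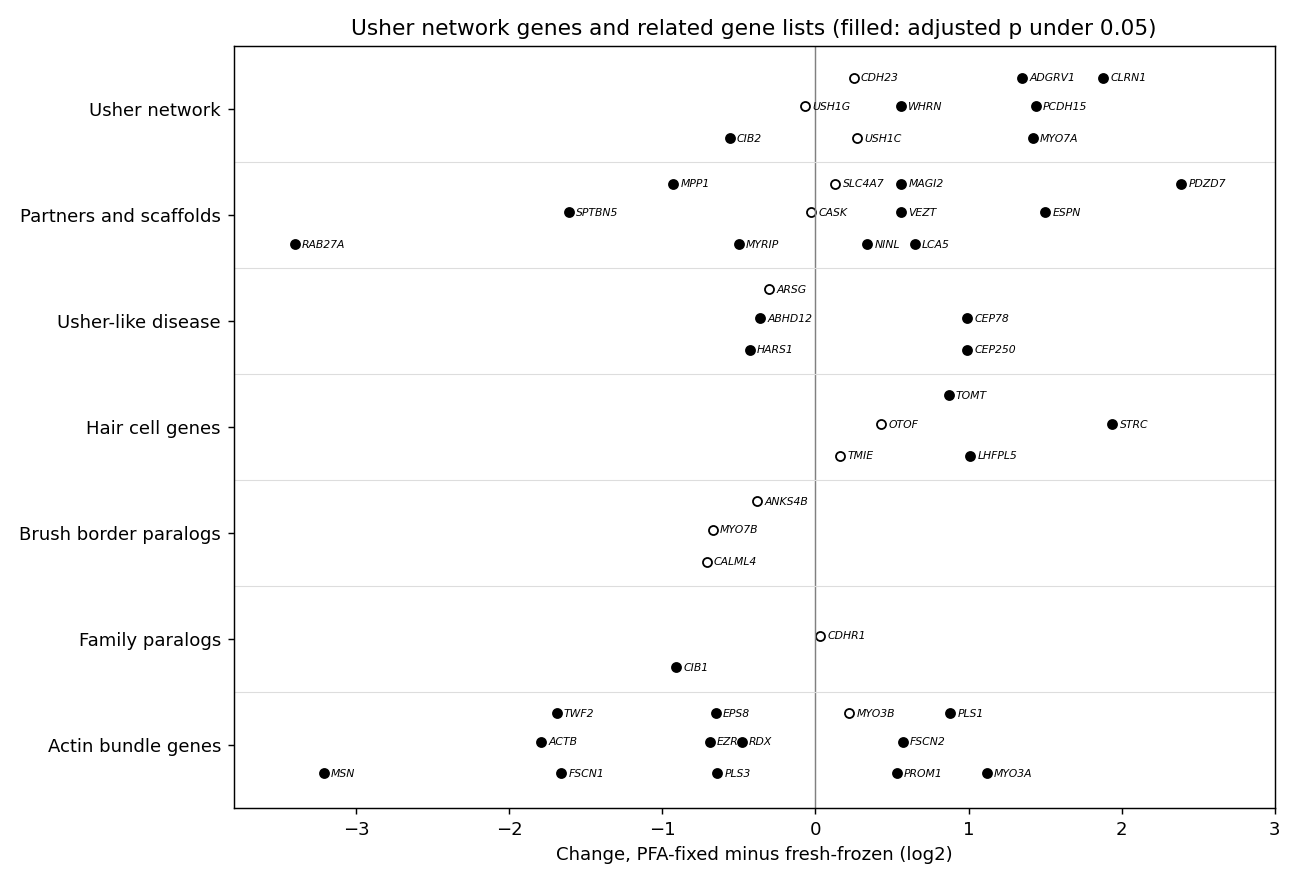
Change of each measured gene (horizontal axis, PFA-fixed minus fresh-frozen, log2) of the Usher network and of 6 related lists, with calls at an adjusted p under 0.05 filled and others open. Vertical offsets within a list only separate the labels. The members with the highest changes lie between 1.35 and 1.88, PDZD7 at 2.39 and ESPN at 1.50, while RAB27A at -3.40 and MSN at -3.21 lie farthest to the left.

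Genes whose 8 values ran most nearly parallel to a member were found by the root mean square difference after the fresh-frozen mean of each gene had been subtracted, among 10145 genes other than members, of at least 3 log2 CPM on average. For PCDH15 they were ARNT and ITGAL (0.0707 and 0.0711 on the log2 scale), and for ADGRV1 LYAR and TCF7L2 (0.0699 and 0.0701). They included RIMBP2, a ribbon synapse protein gene, for MYO7A (0.100) and EML6 for CLRN1 (0.0909). For WHRN they were MOCOS and NPRL2 (0.0781 and 0.0826), and for CIB2 SNX8 and MFAP3L (0.0521 and 0.0559). The members that were not called had PLEKHB1 and FANCL (CDH23, 0.102 and 0.111), SAP25 and PEX3 (USH1C, 0.0887 and 0.0911) and THAP7 and PXYLP1 (USH1G, 0.129 and 0.144) as their nearest genes. With 8 libraries in 2 groups, such likeness reflects mainly the size of the change.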

How the data were processed

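RNA of 8 dog retina libraries had been sequenced, 4 fresh-frozen and 4 PFA-fixed, after library preparation with a stranded total RNA kit for low input, per the labels' protocols. Per the submitters' processing notes, the authors used kallisto 0.48.0, edgeR and limma, with no role or order given. The deposited values are log2 CPM by gene symbol, with a shared lowest value of -3.12, and linear sums of 947376 to 1058314 per library. Of the reference, strand setting and filter, nothing is given in the sources used here.

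Depth was estimated as the spacing of low values in each library, searched from 0.03 to 0.15 CPM. Of values of up to 20 reads, 60.9% to 68.8% were whole within 0.1 of a read, so no count test was run. Reads quoted for a gene are its CPM times that depth.

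The test was limma 3.58.1 (R 4.3.3) with an intensity trend and the group as its only term, on all 12824 genes, with Benjamini-Hochberg adjustment at 0.05. The step was tested on simulated data, in which far fewer genes changed than were called here, so that test does not cover such a setting. Alternatives were no trend, a block for the replicate number, each library left out in turn, quantile normalization, centring on the library median or on the mean or median of the rod list, log2 of CPM plus 1, and a minimum mean of 3 log2 CPM. All members are named. Of each list, the gene with the highest log2 CPM averaged over the 8 libraries, uncorrected for length, and the called genes with the 2 largest rises and 2 largest falls are named. The 2 nearest genes of each member complete the rule. Members and lists were chosen with earlier results of these data known. Planned descriptions by coding length, protein ends and promoter motifs were not run, as no such sequences were used here, and beyond that naming rule levels of different genes were not ranked. All 9 members matched the RefSeq gene table of UU_Cfam_GSD_1.0, which served for names and neighbours only. Some genes of the table are not reported here.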

Additional observations from a re-analysis of the deposited data

Results flagged for a closer look

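In 18 groups of 4 libraries (9 members, 2 preparations), 3 groups held a library far from the other 3, by Dixon's test at the 95% level. Chance alone flags about 1 group in 20. USH1G stood at 1.83 log2 CPM in PFA-fixed replicate 3 and at 1.30 to 1.38 log2 CPM in the other fixed libraries. CIB2 stood at 5.58 log2 CPM in fresh-frozen replicate 4, against 5.76 to 5.79 log2 CPM, and at 5.03 log2 CPM in PFA-fixed replicate 2, against 5.20 to 5.22 log2 CPM. Without single libraries the change of CIB2 ran from -0.61 to -0.51 and that of USH1G from -0.23 to 0.05.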

How the results depend on the processing

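Over all alternatives, the calls of MYO7A, PCDH15, ADGRV1, CLRN1 and CIB2 stayed, in the same direction. The rod list centrings changed most: higher calls over all genes numbered 2696 with its mean and 1012 with its median, lower calls 7577 with the median, and higher calls on the 6 lists 3 with the median. With the rod list median, WHRN turned to -0.08, VEZT to -0.08, NINL to -0.30, MAGI2 to -0.09, FSCN2 to -0.08, PROM1 to -0.12, SAP25 to -0.36, MOCOS to -0.09 and NPRL2 to -0.05, none of them called there, as a lower zero point by construction moves every change down. Without single libraries, all genes gave 4107 to 4285 higher and 4231 to 4380 lower calls, the members 5 to 6 higher and 1 lower, and the lists 14 to 15 higher and 15 to 17 lower. For the 40 list genes, 588 of 627 changes kept their call, with direction compared only for genes called in the main test.

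With the replicate block, calls numbered 4336 higher and 4463 lower, 5 and 1 among the members and 15 and 16 on the lists, the added one being ANKS4B (limma adjusted p = 0.0238). The numbers were not taken as pairs, because the labels do not say that equal numbers share a dog. Same-numbered libraries deviated together with correlations across 10153 genes from -0.15 to 0.27, and other pairs from -0.39 to 0.36. With so few libraries a group, these correlations cannot decide whether equal numbers share a dog. The minimum level leaves USH1G out. USH1G had the fewest reads of the members, 28 to 82 a library; whether depth bears on its result was not tested.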

Other observations

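MYO7B, the brush border relative of MYO7A, was chosen after its values were seen. It stood at 0.89, 4.20, 3.36 and 3.31 log2 CPM in fresh-frozen replicates 1 to 4 and at 0.64, -0.03, 3.94 and 4.51 log2 CPM in PFA-fixed replicates 1 to 4. In both preparations the libraries lay at low or high values, with nothing between 0.89 and 3.31 log2 CPM, and the change between preparations, -0.67 ± 0.99 (SE), was not called (limma adjusted p = 0.562). MYO7A showed no such division, with fresh-frozen libraries between 6.96 and 7.24 log2 CPM and fixed libraries between 8.33 and 8.71 log2 CPM.

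Of the measured genes next to members in the RefSeq gene table, the neighbours of USH1C were both called higher, ABCC8 by 1.10 and OTOG by 1.02 (limma adjusted p of 4.11e-05 and 3.30e-04), while USH1C itself was not called. SLC29A3, next to CDH23, rose by 1.16 (limma adjusted p = 1.19e-05). AKNA, next to WHRN, rose by 0.66 and MED12L, next to CLRN1, by 0.55 (limma adjusted p of 5.67e-04 and 7.59e-04). Next to MYO7A, the protease gene CAPN5 fell by 1.57 (limma adjusted p = 2.62e-06), from a mean of 3.92 to 2.35 log2 CPM. ADGRV1 lay between ARRDC3 and LYSMD3, which changed by -0.04 and -0.21 and were not called (limma adjusted p of 0.784 and 0.0593). Beside USH1G, OTOP2 and FADS6 changed by -0.44 and -0.37 and were not called (limma adjusted p of 0.319 and 0.189).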
